A study of Homo sapiens with 90 samples.

Results

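The 40 genes described here encode the enzymes and transporters of glycolysis together with genes known to be turned on when oxygen is low. They were taken from a named list, which was chosen with earlier results of these data known. Of the 40, 38 were measured by at least 1 probe set that the platform annotation assigns to a single gene symbol, among 19774 genes measured in that way. CA9 and SLC16A3 had no such probe set listed. Where a gene had several probe sets, the brightest over the 81 treated arrays represented it. The measurements came from HepaRG, a human hepatic cell line whose differentiated cultures hold hepatocyte-like next to biliary-like cells. Exposure lasted 24 h. The chemicals were the triazole fungicide fenbuconazole, the imidazole fungicide imazalil and the chlorophenoxy herbicide 2,4-D, each dissolved in DMSO and given at 9 doses in steps of about 3-fold from 0.001 to 10 µM. Each dose of each chemical had 3 arrays, and 3 DMSO arrays were shared by the 3 chemicals, so that 84 arrays were made in all. The labels carry a code, P1, P2 or P3, which marks 1 array of each dose, and the study's methods describe 3 independent batches of cells. HepaRG is a single line, so the replicates are cultures and not donors.

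Glycolysis splits glucose into pyruvate and yields ATP without oxygen. When oxygen falls, prolyl hydroxylases of the EGLN family no longer mark the alpha subunits of hypoxia-inducible factor (HIF) for destruction, and HIF then binds promoters and raises glycolytic enzymes, lactate production, mitophagy receptors and enzymes of collagen maturation. In liver the same genes are known to be higher near the central vein, where oxygen is lowest, and in dense cultures of cells that consume oxygen rapidly.

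Over the 3 chemicals, 16 of the 38 measured members fell with dose and 0 rose. The test was a limma slope on log10 dose over 81 arrays, with the P code of each chemical as a block and Benjamini-Hochberg adjustment over all 54715 probe sets. The 3 chemicals share the P codes, so the p-values measure spread between arrays and not between P codes. Falling probe sets made up 1.3% of the array in the same test. Because the members were chosen with earlier results known, the excess over that share is a description and not an independent test. The slope was negative in 35 of the 38 members, and the median fitted change from 0.001 to 10 µM was -0.11 on the log2 scale, against -0.0011 over all probe sets. The changes were small. Among the 16 members that fell, the fitted change ran from -7.48% for TPI1 to -30.2% for PDK1. In bulk RNA, fewer cells of one kind and less transcript per cell cannot be told apart.

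**Figure D1:**
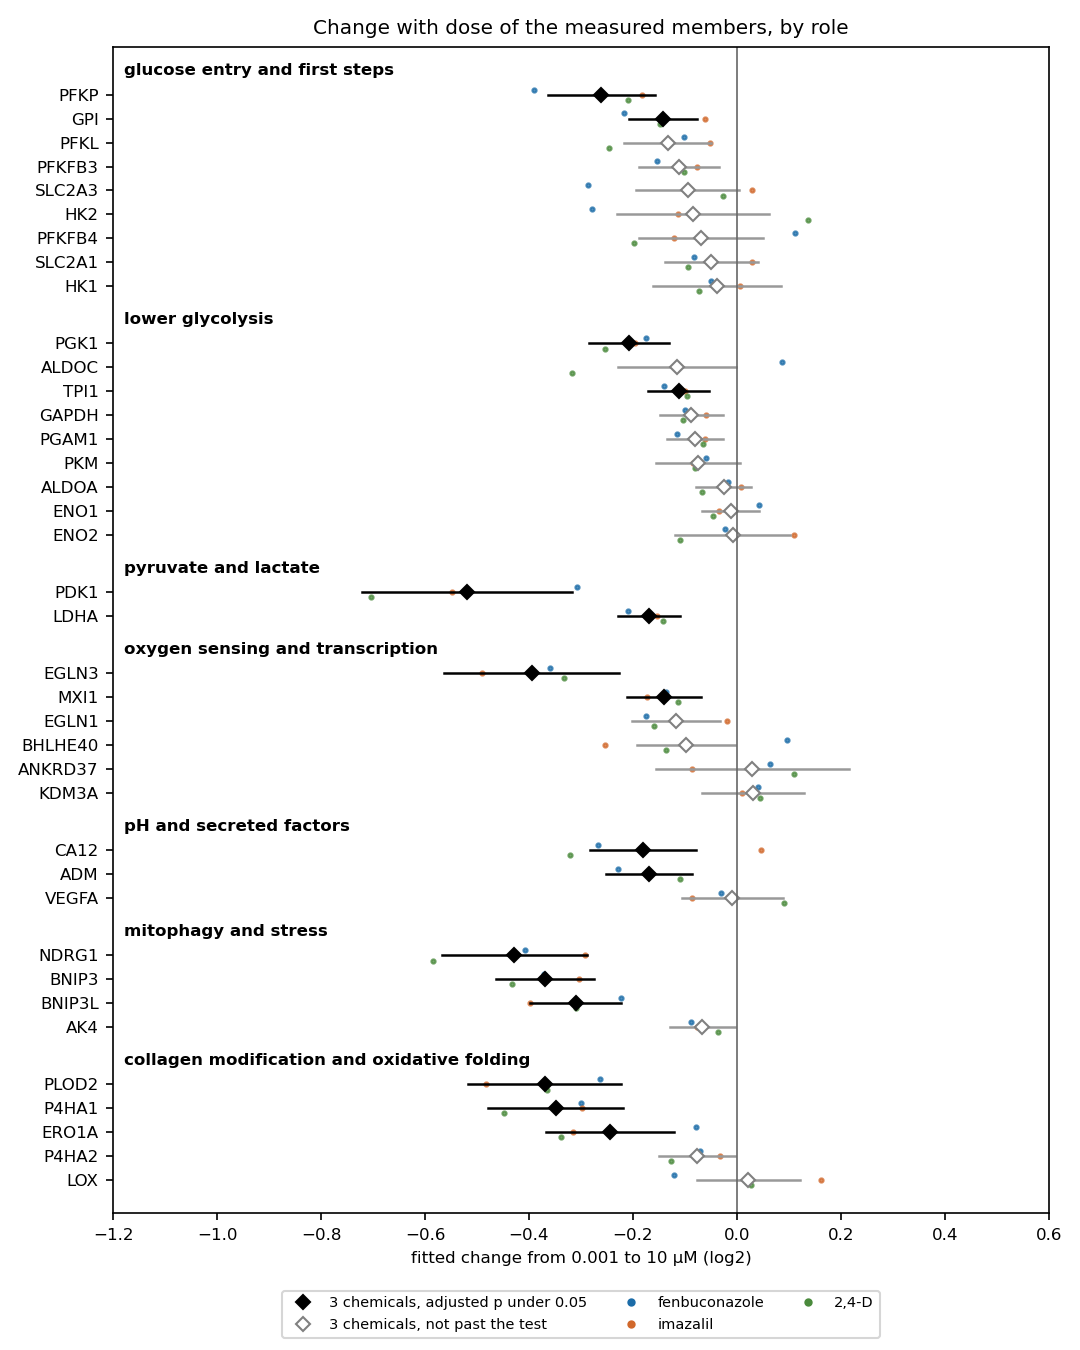
Fitted log2 change from 0.001 to 10 µM for each of the 38 measured members, grouped by role. Diamonds and bars give the slope over 3 chemicals with its 95% interval, filled where the adjusted p was under 0.05, and dots give each chemical alone. The filled diamonds, 16 in number, all lie left of 0.

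Of the 5 promoters below, those of LDHA, BNIP3, PGK1 and PDK1 are shown because these members fell and carry the letters ACGTG. These letters are a form of the core of the hypoxia response element. ANKRD37 is shown because it carries them too but followed another dose course. Each sequence is the 250 bases before a RefSeq transcript start, the one with most matches where a gene has several, on GRCh38.p14, read 5′ to 3′ on the gene's strand, with ACGTG or its reverse complement CACGT in capitals. The letters CACGTG hold both and count as both.
BNIP3, chr10:131981924-131982173, minus strand: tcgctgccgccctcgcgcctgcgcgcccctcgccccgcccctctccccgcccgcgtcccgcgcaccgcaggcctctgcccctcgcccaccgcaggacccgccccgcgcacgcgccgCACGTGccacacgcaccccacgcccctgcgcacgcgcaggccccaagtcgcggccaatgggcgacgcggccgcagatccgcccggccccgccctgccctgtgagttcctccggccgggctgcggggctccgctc
LDHA, chr11:18394313-18394562, plus strand: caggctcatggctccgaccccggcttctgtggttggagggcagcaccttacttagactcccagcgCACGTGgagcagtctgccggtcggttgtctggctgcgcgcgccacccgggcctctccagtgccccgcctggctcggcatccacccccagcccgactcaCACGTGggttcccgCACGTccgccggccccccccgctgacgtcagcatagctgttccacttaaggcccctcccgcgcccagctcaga
PGK1, chrX:78103998-78104247, plus strand: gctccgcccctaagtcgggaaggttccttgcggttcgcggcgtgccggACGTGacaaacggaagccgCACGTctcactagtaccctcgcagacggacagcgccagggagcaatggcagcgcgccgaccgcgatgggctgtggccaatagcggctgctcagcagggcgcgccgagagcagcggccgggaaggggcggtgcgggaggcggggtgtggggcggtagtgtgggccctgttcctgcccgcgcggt
PDK1, chr2:172555840-172556089, plus strand: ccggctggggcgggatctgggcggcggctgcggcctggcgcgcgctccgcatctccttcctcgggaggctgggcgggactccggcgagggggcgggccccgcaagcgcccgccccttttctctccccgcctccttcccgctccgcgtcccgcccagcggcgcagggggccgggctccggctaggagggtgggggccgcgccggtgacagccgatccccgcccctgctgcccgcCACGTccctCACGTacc
ANKRD37, chr4:185396591-185396840, plus strand: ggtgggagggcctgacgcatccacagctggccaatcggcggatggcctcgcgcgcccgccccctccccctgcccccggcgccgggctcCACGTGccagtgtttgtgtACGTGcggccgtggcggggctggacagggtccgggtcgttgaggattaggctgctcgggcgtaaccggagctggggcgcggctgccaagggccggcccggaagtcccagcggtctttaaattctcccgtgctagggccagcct
A match was searched on both strands in a window from 250 bases before to 50 bases after the start, and a gene counted if any of its starts held one. It was present in 22 of the 34 measured members with an entry, or 64.7%, against 28.9% of 15399 genes on the array. BNIP3L, NDRG1, SLC2A3 and VEGFA were not among the 34. By dose response, 11 of the 14 that fell and 11 of the 20 that did not pass the test held a match. With the first entry of each gene alone these counts were 7 and 10. A gene with more starts has more windows that could hold the letters. EGLN3, ADM and CA12, which fell, had no match in this window. Other forms of the core were not searched, so a gene without a match may still hold one. A match describes letters and not a bound site.

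The mitophagy and stress genes gave the smallest p-values, and 3 of 4 fell. BNIP3 encodes a receptor on the outer mitochondrial membrane that recruits autophagosomes. At the 3 lowest doses of 2,4-D its log2 intensity on 9 arrays ran from 10.33 to 10.83 with a median of 10.52, and at the 3 highest doses from 9.97 to 10.36 with a median of 10.21. The corresponding medians were 10.49 and 10.15 under fenbuconazole and 10.38 and 10.11 under imazalil. The low-dose and high-dose arrays overlapped at their edges under each chemical. The fitted change of BNIP3 over the 3 chemicals was -0.37 (SE 0.047, limma adjusted p 9.2e-08), a change of -22.6%. The slope was negative in 9 of 9 series of 1 chemical and 1 P code, which are not independent because the chemicals share P codes. In 2,4-D alone it was -0.43 (SE 0.082, limma adjusted p 0.0343), a call lost on leaving out any P code or with no block.

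BNIP3L, the related receptor known for clearing mitochondria from maturing red cells, fell by 0.31 on the log2 scale over the 3 chemicals (SE 0.044, limma adjusted p 8.6e-07) and was the single member past the test for imazalil alone. Under imazalil its 3 arrays at 10 µM read 8.87, 8.78 and 8.95 for P1, P2 and P3. The 24 arrays at lower doses ran from 9.02 to 9.61 with a median of 9.20, so the groups did not overlap. The imazalil slope came to -0.40 (SE 0.079, limma adjusted p 0.0111) and no longer passed without any 1 of the P codes.

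NDRG1, a stress-responsive gene used as a marker of low oxygen, changed by -0.43 over the 3 chemicals (SE 0.070, limma adjusted p 2.5e-05). Under 2,4-D its 9 low-dose arrays ran from 8.97 to 9.68 with a median of 9.15, and its 9 high-dose arrays from 8.33 to 8.94 with a median of 8.80. These ranges did not overlap, and the 2,4-D slope was -0.58 (SE 0.11, limma adjusted p 0.0256), which did not pass when any P code was left out. The shared DMSO arrays, read in the 2,4-D set, gave 9.08, 8.62 and 8.82 and lay on both sides of that gap. AK4, a mitochondrial adenylate kinase, was the flattest of this group at -0.07 (adjusted p 0.404).

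Both measured genes at the branch between pyruvate and lactate fell. PDK1 phosphorylates and switches off pyruvate dehydrogenase, and it had the steepest slope of all members at -0.52 (SE 0.10, limma adjusted p 4.9e-04). At 10 µM 2,4-D its arrays read 6.11, 6.34 and 6.31, below the 24 lower-dose arrays, which ran from 6.44 to 7.54 with a median of 7.08. At 10 µM fenbuconazole the 3 arrays spread from 7.15 in P1 through 6.88 in P3 to 5.80 in P2, and the first of these lay above the lower-dose median of 7.00. The slope was -0.70 for 2,4-D (SE 0.14, limma adjusted p 0.0444), -0.55 for imazalil (adjusted p 0.112) and -0.31 for fenbuconazole (adjusted p 0.750). The 2,4-D call was lost on leaving out any P code or with no block. LDHA, which turns pyruvate into lactate, is one of the brightest members with a mean log2 intensity of 11.9. It fell by 0.17 on the log2 scale (SE 0.030, limma adjusted p 9.0e-05) and in 9 of 9 series. At 10 µM imazalil its arrays read 11.79, 11.51 and 11.74, below the lower-dose range of 11.83 to 12.04.

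Among the enzymes of glycolysis itself the declines were smaller and fewer. Of the 9 genes for glucose entry and the first steps, 2 fell, and of the 9 for the lower steps, also 2, although the slope was negative in all 18. PFKP, a phosphofructokinase, fell by 0.26 on the log2 scale (SE 0.052, limma adjusted p 6.3e-04), and GPI, which interconverts the hexose phosphates, by 0.14 (SE 0.032, limma adjusted p 0.0044). PFKP fell by 1 of its 2 probe sets, the other at 0.04. PGK1, the first ATP-yielding enzyme of the pathway, fell by 0.21 (SE 0.039, limma adjusted p 2.5e-04), and TPI1, which interconverts the triose phosphates, by 0.11 (SE 0.030, limma adjusted p 0.0205). PGK1 at 10 µM imazalil read 10.97, 10.75 and 11.03, at the lower edge of its lower-dose range of 10.85 to 11.40.

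GAPDH, widely used as a reference transcript, had a slope of -0.09 (SE 0.030, adjusted p 0.139), although 2 of its 6 probe sets fell. PGAM1, PKM, PFKL, PFKFB3 and ALDOC lay between -0.07 and -0.13 without passing. The enolase ENO1 and the aldolase ALDOA, with mean log2 intensities of 11.9 and 11.6, changed by -0.01 and -0.03. Their 95% intervals, -0.07 to 0.04 for ENO1 and -0.08 to 0.03 for ALDOA, leave out a decline as steep as that of PGK1. The neuronal enolase ENO2 (-0.01), the hexokinases HK1 (-0.04) and HK2 (-0.08) and the glucose transporter SLC2A3 (-0.09) did not pass. Their mean log2 intensities of 2.80, 2.94, 3.29 and 2.93 lay near the array medians, which ran from 2.81 to 2.97. The transporter SLC2A1 (-0.05) and the regulator PFKFB4 (-0.07), at 5.60 and 4.17, did not pass either. In all, 16 of the 30 members with a mean log2 intensity of 6 or more fell and 0 of the 8 below it, where over all probe sets the shares falling were 4.49% and 0.509%.

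Of the 6 genes for oxygen sensing and transcription 2 fell. EGLN3, a prolyl hydroxylase that is itself raised by HIF, changed by -0.39 (SE 0.085, limma adjusted p 0.0020). MXI1, an antagonist of MYC, changed by -0.14 (SE 0.036, limma adjusted p 0.0137). The hydroxylase EGLN1 stood at -0.12 (adjusted p 0.162), the circadian repressor BHLHE40 at -0.10 (adjusted p 0.420) and the histone demethylase KDM3A at 0.03 (adjusted p 0.917).

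Among pH and secreted factors, 2 of 3 measured members fell. The vasodilator peptide gene ADM changed by -0.17 (SE 0.042, limma adjusted p 0.0102). CA12, a carbonic anhydrase at the cell surface, changed by -0.18 (SE 0.051, limma adjusted p 0.0369), which 1 of its 7 probe sets carried. VEGFA, the growth factor for vessels and a textbook HIF target, stayed at -0.01 (SE 0.049, adjusted p 0.983), with a 95% interval from -0.11 to 0.09.

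The enzymes of collagen maturation and oxidative folding fell in 3 of 5 cases. PLOD2, a lysyl hydroxylase, changed by -0.37 (SE 0.074, limma adjusted p 7.0e-04), P4HA1, the catalytic subunit of prolyl 4-hydroxylase, by -0.35 (SE 0.065, limma adjusted p 2.5e-04), and ERO1A, the oxidase that reloads protein disulfide isomerase, by -0.24 (SE 0.062, limma adjusted p 0.0127). P4HA1 fell by 1 of its 2 probe sets, the other at -0.01. P4HA2 stood at -0.08 (adjusted p 0.421). LOX, the collagen crosslinking oxidase, had a mean log2 intensity of 2.24 and a slope of 0.02. Over all 90 probe sets of the measured members, 29 fell and 0 rose, where 1.3% of all probe sets on the array fell. Both probe sets fell for BNIP3, BNIP3L, EGLN3, ERO1A, PDK1 and PLOD2. Probe sets of the same gene are not independent of each other.

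The dose course was mostly a step at the top dose. Each array value was set against the mean of its chemical and P code, and the median over members stayed between 0.02 and 0.05 from 0.001 to 0.3 µM. It was -0.03 at 1 µM, -0.02 at 3 µM and -0.13 at 10 µM, and -0.03 on the DMSO arrays. At 10 µM 33 of 38 members were negative, against 48.6% of all probe sets. EGLN3 lay lowest at 10 µM, at -0.59. BNIP3 took a more gradual course from its highest values at 0.001 to 0.01 µM downward.

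**Figure D2:**
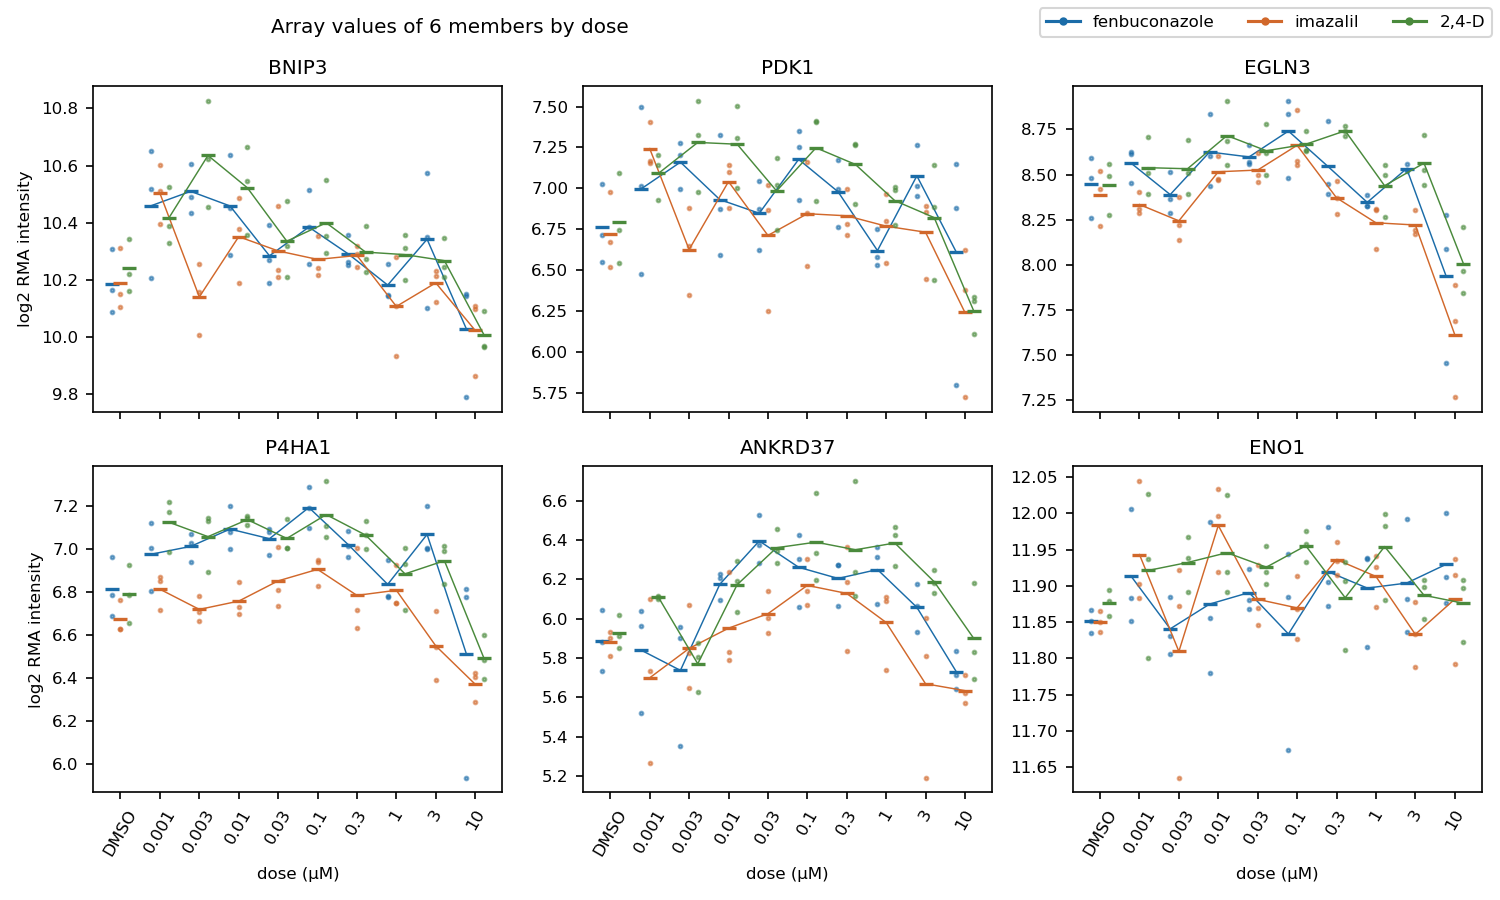
Log2 RMA intensity of 6 members by dose in µM, with DMSO at the left. Dots are arrays, dashes are means of 3 and lines join the treated doses. The DMSO dots are the same 3 arrays normalized with each chemical. EGLN3 and P4HA1 drop between 3 and 10 µM, BNIP3 declines over the range, ANKRD37 is highest in the middle, and ENO1 shows no slope past the test.

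A comparison of 10 µM with the mean of the 8 lower doses, added after the dose course had been seen, uses the same arrays as the slope. Over the 3 chemicals 22 members were lower at 10 µM and 0 higher by limma, where 2.99% of all probe sets were lower. EGLN3 differed by -0.66 (SE 0.064, limma adjusted p 6.6e-13), PDK1 by -0.61 (SE 0.099, limma adjusted p 4.6e-06), PLOD2 by -0.50 (SE 0.067, limma adjusted p 3.1e-08) and P4HA1 by -0.49 (SE 0.055, limma adjusted p 7.5e-11). GAPDH, whose slope had not passed, differed by -0.16 (SE 0.027, limma adjusted p 1.4e-05).

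EGLN3 was the most regular of these members. Its arrays at 10 µM read 8.09, 7.45 and 8.27 under fenbuconazole, against 8.29 to 8.91 on the 24 lower-dose arrays. Under imazalil they read 7.89, 7.26 and 7.69 against 8.09 to 8.86. Under 2,4-D they read 7.96, 7.84 and 8.21 against 8.26 to 8.91. The 10 µM arrays lay below every lower-dose array of their chemical in all 3 cases, and P2 was the lowest of the 3 each time.

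In single chemicals, this comparison found 5 members lower under fenbuconazole (GPI, EGLN3, CA12, ADM and P4HA1; 0.744% of all probe sets lower), 5 under imazalil (LDHA, EGLN3, BNIP3L, P4HA1 and PLOD2; 0.705%) and 9 under 2,4-D (ALDOC, PGK1, PDK1, EGLN3, CA12, BNIP3L, NDRG1, P4HA1 and PLOD2; 0.327%). EGLN3 and P4HA1 passed in all 3. All 10 µM arrays lay below all lower-dose arrays for 3 members under fenbuconazole, 3 under imazalil and 11 under 2,4-D, where the shares over all probe sets were 0.302%, 0.28% and 0.21%. Within the 9 series, the 10 µM array was the lowest of its 9 treated arrays at least 7 times for 9 members (EGLN3, LDHA, PLOD2, ADM, BNIP3, BNIP3L, GAPDH, P4HA1 and PGK1), against 0.462% of all probe sets.

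**Figure D3:**
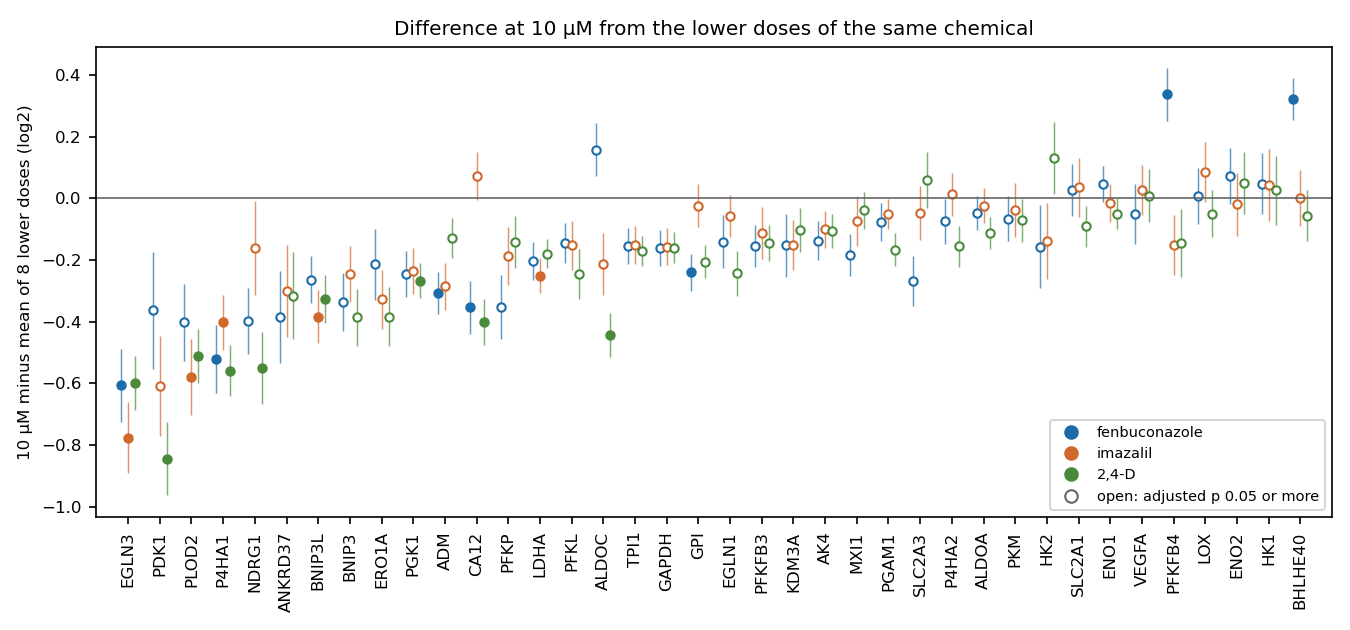
Difference between 10 µM and the mean of the 8 lower doses (log2, with SE) for each of the 38 members and each chemical, ordered by the value over 3 chemicals. Filled points passed an adjusted p of 0.05. EGLN3 and P4HA1 are filled and negative in all 3 chemicals, and PFKFB4 and BHLHE40 are filled and positive under fenbuconazole.

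The slopes of single chemicals, each over 27 arrays, passed for few members. Under fenbuconazole 0 members fell (24 probe sets, 0.0439%), with 16 negative at an unadjusted p under 0.05, a level that 4.53% of all probe sets reached in that direction, and a smallest adjusted p of 0.0834, for BNIP3. Under imazalil 1 fell (0.473% of all probe sets), and under 2,4-D 3 fell (BNIP3, NDRG1 and PDK1; 0.0512%). The calls of BNIP3L under imazalil and of all 3 under 2,4-D were lost on leaving out any P code or the 10 µM arrays. Those under 2,4-D were also lost without the 3 lowest doses or without the pair of arrays that share a number, BNIP3 and PDK1 with no block or the title number as block, PDK1 with array medians subtracted, and BNIP3 at 10 µM against the lower doses. The member medians were -0.13, -0.09 and -0.12, and 32, 30 and 33 of 38 slopes were negative. By a limma F test 0 members passed for a difference in slope between the chemicals (smallest adjusted p 0.321, 4 members at an unadjusted p under 0.05, where 8.98% of all probe sets lay there). By adjusted p 0.0695% of all probe sets differed. The slope was negative in all 9 series for 7 members (BNIP3, BNIP3L, NDRG1, LDHA, P4HA1, PLOD2 and EGLN3), against 0.749% of all probe sets. The 3 chemicals share the P codes, so these are not 9 independent replicates.

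At 10 µM the chemicals did differ for a pair of members in the added comparison with the lower doses, where 0.548% of all probe sets differed. ALDOC, the aldolase of brain, was at -0.44 under 2,4-D, -0.21 under imazalil and 0.16 under fenbuconazole (limma F test, adjusted p 0.0078). Its 10 µM arrays read 7.45, 7.55 and 7.84 under 2,4-D and 8.23, 7.83 and 8.43 under fenbuconazole, against lower-dose medians of 8.06 and 8.02. CA12 was at -0.40 under 2,4-D, -0.35 under fenbuconazole and 0.07 under imazalil (limma F test, adjusted p 0.0137). Its 3 imazalil arrays at 10 µM, 8.48, 8.33 and 8.50, lay around the lower-dose median of 8.37.

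By the member median, DMSO lay between the low doses and the top dose. The differences that follow are taken from DMSO. At 10 µM the member median was -0.13 under each of fenbuconazole, imazalil and 2,4-D, with 32, 29 and 33 of 38 negative. Over 0.001 to 0.03 µM it was 0.08, 0.04 and 0.07, with 33, 26 and 32 positive. These comparisons share the same 3 DMSO arrays, so their likeness is not independent. No member was higher than DMSO at the low doses by limma (smallest adjusted p 0.611, 0.496 and 0.362, where 0.00183%, 0% and 0% of all probe sets were higher). At an unadjusted p under 0.05, 4, 2 and 7 members were higher, against 2.94%, 4.73% and 3.85% of all probe sets.

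Few members passed against DMSO at 10 µM. Of the 38, 0 fell under fenbuconazole, 1 under imazalil and 0 under 2,4-D. The shares of all probe sets that fell were 0.15% for fenbuconazole, 0.26% for imazalil and 0.00548% for 2,4-D. EGLN3 fell under imazalil, from DMSO values of 8.42, 8.21 and 8.52 to 7.89, 7.26 and 7.69, by 0.77 on the log2 scale (SE 0.12, limma adjusted p 4.9e-04). Its differences were -0.51 under fenbuconazole (adjusted p 0.200) and -0.43 under 2,4-D (adjusted p 0.333).

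A pair of members was higher than DMSO under 10 µM fenbuconazole, where 0.318% of all probe sets were higher. PFKFB4, an enzyme that sets the level of fructose 2,6-bisphosphate, went from 3.90, 3.57 and 3.95 to 4.50, 4.32 and 4.46, a rise of 0.62 (SE 0.11, limma adjusted p 0.0037). Its differences from DMSO under imazalil and 2,4-D were 0.00 and 0.22 and did not pass. The DMSO arrays lay low for PFKFB4, with a mean deviation of -0.27 from the treated means, the lowest of all members. Against the 8 lower doses its difference at 10 µM fenbuconazole was 0.34 (SE 0.085). BHLHE40 went from 9.32, 8.06 and 8.13 to 9.85, 8.39 and 8.49, a rise of 0.41 (SE 0.091, limma adjusted p 0.0357), and its P1 cultures lay far above P2 and P3 in both groups. Both calls were lost on leaving out any P code, that of BHLHE40 also with no block or with array medians subtracted and that of PFKFB4 also with the mean of all its probe sets. The call of EGLN3 was lost on leaving out P2 or P3.

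ANKRD37, a small ankyrin repeat protein and HIF target, and KDM3A followed an arched course. The mean deviation of ANKRD37 over 9 arrays was -0.17 at 0.001 µM and -0.27 at 0.003 µM, between 0.15 and 0.22 from 0.03 to 1 µM, and -0.30 at 10 µM. All 9 arrays were above their series mean at 0.03 and at 0.1 µM, and 8 of 9 were below it at 10 µM. Its slope over all doses was 0.03 (adjusted p 0.967). Without the 3 lowest doses it was -0.79 on the same scale (limma adjusted p 1.6e-05), and KDM3A then stood at -0.28 (limma adjusted p 0.0226).

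Dose could not be separated from sample number. In each P code the numbers in the labels run from 10 µM downward within a chemical, 2,4-D first, then fenbuconazole, then imazalil, except that 0.001 µM comes before 0.003 µM in each chemical and that both share a number in P2 of 2,4-D. Plate positions were not given in the sources used here, so the order in which samples were handled and the order of dose cannot be told apart within a chemical. Across chemicals the numbers restart the dose series, and the member median was lower after each restart given here. Chemical, normalization and dose all change at a restart, so these steps cannot tell them apart. It went from 0.09 at number 10 to -0.04 at number 11 in P1 among values set against each P code, and from 0.07 to -0.07 between numbers 19 and 20. In P3 the same steps were -0.16 and -0.21. In P2 the second step was -0.25, and the first could not be read because P2 has no array at number 10.

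**Figure D4:**
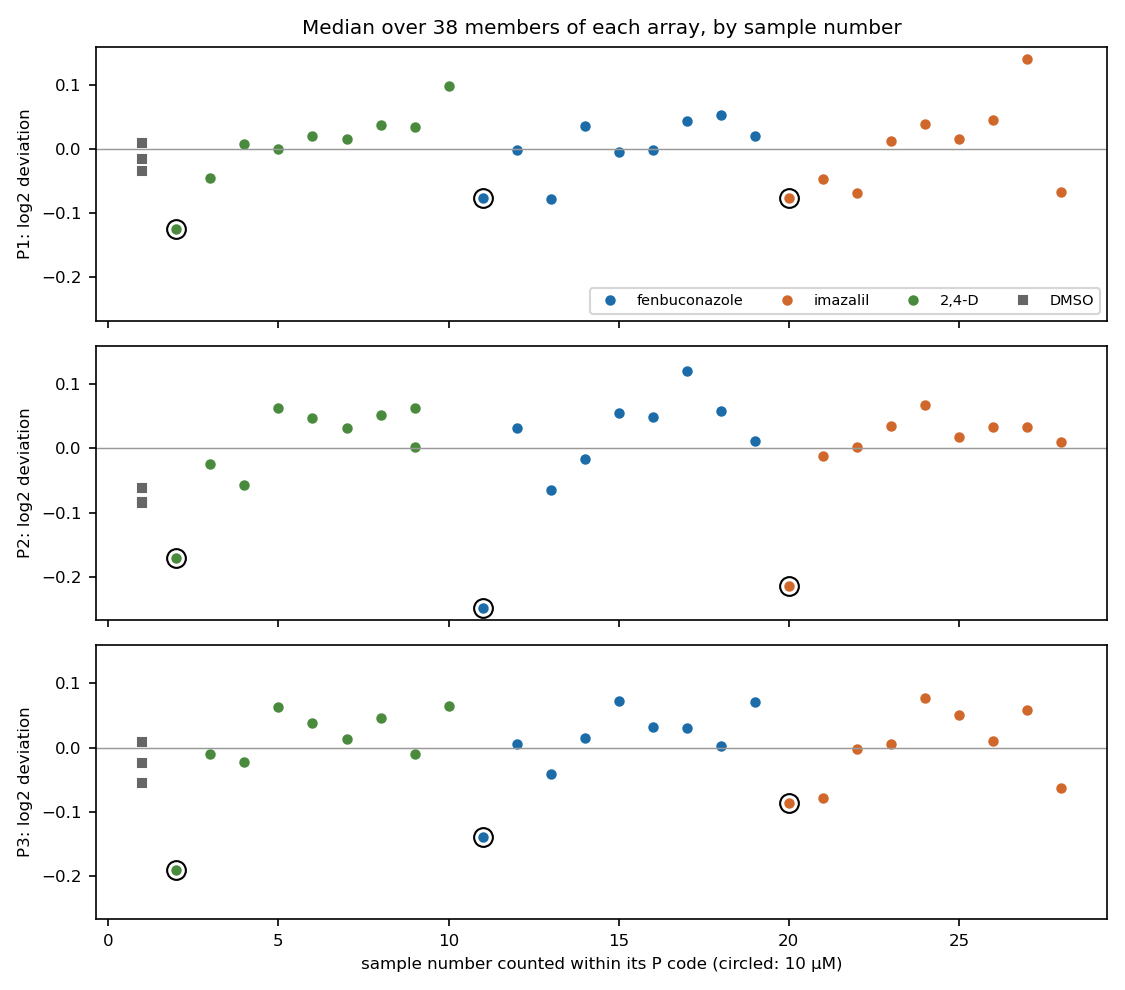
Median log2 deviation over the 38 members on each array, by sample number within P1, P2 and P3, with 10 µM arrays circled. The circled arrays, numbers 2, 11 and 20, lie below 0 in all 9 series. Squares are the DMSO array of each P code as normalized with each chemical.

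The change from 0.001 to 10 µM in the 3′ minus 5′ signal was 0.007 (SE 0.018) for GAPDH and 0.006 (SE 0.029) for ACTB, and -0.080 (SE 0.039) in the hybridization controls, which reached -0.27 under fenbuconazole. The labelling controls changed by -0.058 (SE 0.056) over the 3 chemicals and by -0.20 under imazalil. Their part in the members' decline was not tested. Hepatocyte markers (6 of 7 measured, ALB among them) had mean log2 intensities from 11.8 to 13.3, and 0 of them passed the test. The biliary keratin KRT19 stood at 10.0, while KRT7, EPCAM and CFTR stood at 2.94, 2.51 and 2.44, near or below the array medians of 2.81 to 2.97. Of 6 biliary markers SPP1 rose by 0.36, and the list held 3 positive and 3 negative slopes. All 5 proliferation markers had positive slopes, from 0.13 to 0.21, and CCNB1 (0.17) and BIRC5 (0.21) passed. Of 5 endothelial markers TEK fell by 0.32 at a mean of 3.03, with 3 slopes negative and 2 positive. The test was passed by 0 of 6 mesenchymal and 0 of 5 immune markers. Over all probe sets 0.908% rose and 1.3% fell.

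Related gene lists changed in part. In the same test 1.3% of all probe sets fell, or 4.49% of those with a mean log2 intensity of 6 or more, and 0.908% rose. Of 15 genes of HIF itself and its regulators 1 fell, HIF1A, the oxygen-labile subunit, at -0.17 (SE 0.041, limma adjusted p 0.0063). The median of these 15 was -0.01, so the single call does not stand for the list. EPAS1, the subunit known as HIF-2 alpha, stood at -0.11 (adjusted p 0.0857). Of 21 measured other hypoxia targets 5 fell and 1 rose. TMEM45A (-0.66, SE 0.084, limma adjusted p 9.2e-08) and IGFBP3, an insulin-like growth factor binding protein (-0.62, SE 0.080, limma adjusted p 9.2e-08), fell with larger fitted changes than any member. IGFBP1, the glycogen-targeting subunit PPP1R3C and the glycogen branching enzyme GBE1 changed by -0.54, -0.25 and -0.12. DDIT4, an inhibitor of mTORC1 signalling, rose by 0.14 (limma adjusted p 0.0168).

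Liver and other forms of the glycolytic enzymes divided, with 2 of 17 measured genes lower and 1 higher. Over all probe sets 1.3% fell and 0.908% rose. The liver pyruvate kinase PKLR fell by 0.32 on the log2 scale (limma adjusted p 5.9e-04), PDK3 fell by 0.19 (limma adjusted p 0.0021) and LDHB, the lactate dehydrogenase subunit of oxidative tissues, rose by 0.42 (limma adjusted p 0.0165). At the entry of pyruvate into the citrate cycle 0 of 9 fell and 3 rose, where 0.908% of all probe sets rose. PDHA1, the subunit that PDK1 phosphorylates, rose by 0.15 (limma adjusted p 9.7e-04), the mitochondrial pyruvate carrier MPC1 by 0.21 (limma adjusted p 0.0201) and citrate synthase CS by 0.15 (limma adjusted p 0.0239).

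**Figure D5:**
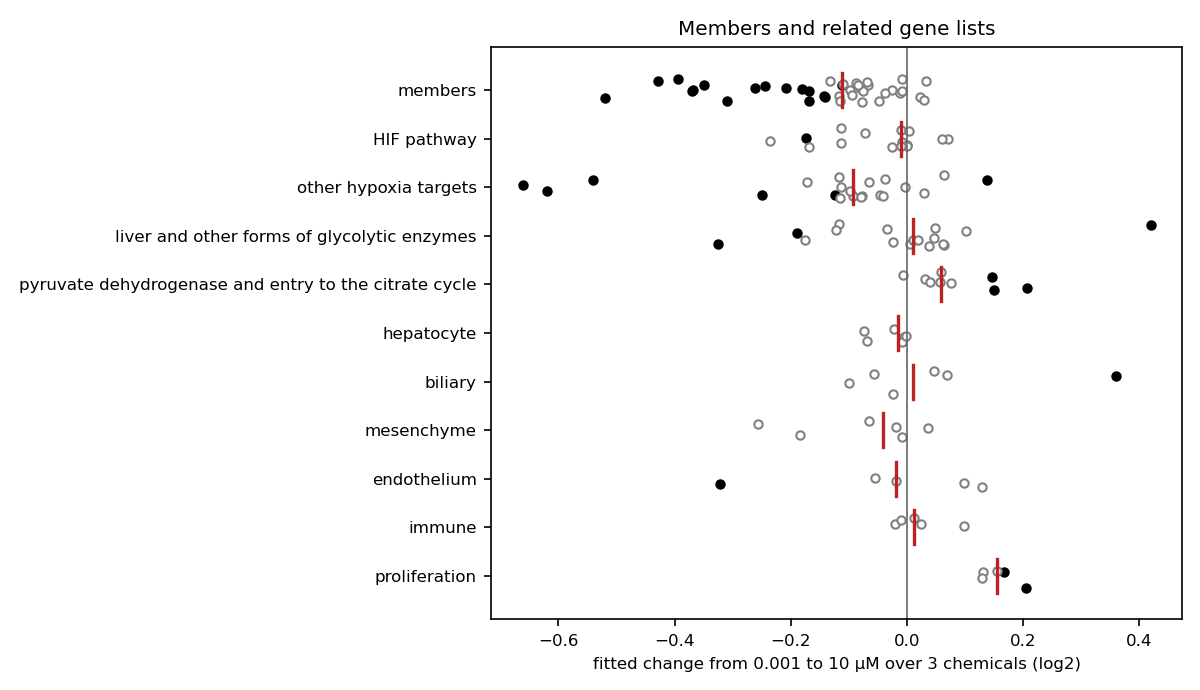
Fitted log2 change from 0.001 to 10 µM over 3 chemicals for the members, related gene lists and cell type markers. Each point is a gene, filled where the adjusted p was under 0.05, and red lines are list medians. The members' median is -0.11, that of other hypoxia targets -0.09 and that of pyruvate dehydrogenase and citrate entry 0.06.

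The calls rested strongly on the top dose. Without the 10 µM arrays 4 members fell (BNIP3, BNIP3L, NDRG1 and BHLHE40), with a member median of -0.06 and 34 negative slopes. Leaving out P1, P2 or P3 left 9, 5 or 12 members, and P2 held the lowest 10 µM arrays under fenbuconazole and imazalil.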

How the data were processed

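Total RNA from HepaRG cultures was hybridized to GeneChip HT HG-U133+ PM arrays. As deposited, intensities are on the log2 scale after robust multi-array averaging (RMA), which the authors ran once per chemical, adding the 3 DMSO arrays every time, so each chemical was fitted within its own set. The sources used here name RMA and Partek without versions. Arrays have no depth, and precision is limited by their number. All 54715 probe sets were fitted with limma 3.58.1 in R 4.3.3, as a slope on log10 dose over 27 arrays a chemical or 81 in all, with the P code as a block, and as group means against DMSO. Changes are the slope times 4, the span of log10 dose. P-values were adjusted by Benjamini-Hochberg, and 0.05 was the threshold. The P code was used as the block because arrays of the same code deviated together (mean correlation 0.098, 0.094 and 0.117 within a code and -0.049, -0.047 and -0.058 between codes). The values between codes follow those within in each set and are not separate evidence. Titles of 2,4-D arrays carry replicate numbers other than the P code, and 2 arrays of P2 share a sample number. Platform annotation named 40920 single-symbol probe sets. Members and gene lists were chosen with earlier results of these data known. Genes named in full were the 12 members with the smallest adjusted p over the 3 chemicals, any passing in 1 chemical, against DMSO or between chemicals, the steepest and flattest of each role, and up to 4 per related list. Other genes named were chosen after their values were seen. Alternatives comprised other blocks, dose ranges, scalings, filters and gene summaries, and leaving out each P code.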

Additional observations from a re-analysis of the deposited data

Results flagged for a closer look

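ALDOC and CA12 are listed because their difference between 10 µM and the lower doses was not the same in the 3 chemicals by a limma F test (adjusted p 0.0078 for ALDOC and 0.0137 for CA12). The comparison was added after the dose course had been seen, and the corresponding test on slopes passed for neither.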

How the results depend on the processing

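The fall over 3 chemicals, 16 members and 1210 probe sets called in either direction, gave 14 members with no replicate block, 15 with sample number in place of dose, 16 with array medians subtracted, 17 with the mean of all probe sets of a gene and 17 without the 3 lowest doses. Without 10 µM it gave 4 members and 137 probe sets, and leaving out 1 P code gave 5 to 12 members and 302 to 771 probe sets. With 10 µM against the lower doses, chosen after seeing the data, 2923 probe sets were called. Slopes differing between chemicals numbered 38 probe sets, 2 to 9 on leaving out a P code, 6 without 10 µM and 300, with 2 members in place of 0, in the added comparison.

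Single chemicals were less stable. For fenbuconazole (40 probe sets, 0 members) the counts were 26 probe sets with no block, 0 to 3 on leaving out a P code, 0 without 10 µM, 135 with 2 members without the lowest doses, 86 with bright probe sets alone, 177 with 4 members under a variance trend, 95 with 1 member by gene means, and 770 with 5 members falling in the added comparison. For imazalil (405, 1 member) they were 232 with no block, 40 to 183 with 0 members on leaving out a P code, 17 with 0 members without 10 µM, 3 members without the lowest doses, 717 with 3 members for bright probe sets, 696 with 4 members under a variance trend, 2 members by gene means, and 738 with 5 members in the added comparison. For 2,4-D (30, 3 members) they were 5 with 1 member with no block or with the title number as block, 0 to 4 with 0 members on leaving out a P code, 1 with 0 members without 10 µM, 17 with 0 members without the lowest doses, 64 with 5 members for bright probe sets, 89 with 6 members under a variance trend, 5 members by gene means, 0 with 0 members without the 2 arrays that share a number, and 249 with 9 members in the added comparison. With array medians subtracted 2 members fell under 2,4-D.

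Against DMSO at 10 µM, leaving out a P code moved the calls to 90 to 138 from 256 for fenbuconazole, to 77 to 107 with 0 to 1 members from 317 with 1 member for imazalil (2 members by gene means), and to 0 from 3 for 2,4-D (0 with no block, 5 for bright probe sets, 1 by gene means). At low doses 3 calls for fenbuconazole and 1 for 2,4-D became 0 with no block, with array medians subtracted, by gene means and on leaving out any P code. The sign turned for ANKRD37 under fenbuconazole (-0.89) and over 3 chemicals (-0.79) and for KDM3A (-0.28) without the 3 lowest doses, and for ANKRD37 in the added comparison (-0.33). The cause of these shifts was not tested.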
